A study of Rattus norvegicus with 77 samples.

Results

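Sperm from the cauda epididymis of untreated rats were profiled on whole-transcript arrays, and the genes of these control sperm are described here by how bright and how steady their signals were from rat to rat. The 20 arrays were those of Fischer 344 males that drank plain water for 3 months and were killed at the end of that period, 1 array per rat, out of 77 arrays in the series. The other groups, which received 0.33% HD (2,5-hexanedione, a testicular toxicant) or were killed after 3 further months on plain water, were not compared with them. The 18 rats that had plain water throughout and the extra 3 months served only to repeat the same measures in other animals. Of 29214 probe sets, 15310 carried exactly 1 gene symbol, and averaging the probe sets of a gene gave 14506 genes. The sperm had been released through needle punctures, spun and treated with a somatic cell lysis buffer, and the methods describe microscopy and a gel without 18S and 28S rRNA peaks as checks of purity. In such a bulk sample fewer cells of a type and less RNA per cell cannot be told apart.

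A spermatid packs its DNA with transition proteins and then protamines, shuts down transcription, and builds the acrosome and the tail from messages that were stored and translated later. The mature sperm leaves the testis almost without cytoplasm and makes no new mRNA, and much of the RNA it carries is held to be left from the spermatid. In the cauda it lies in fluid secreted by the epididymal epithelium, whose principal cells make defensins, CRISP proteins and lipocalins.

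The labelled cell type was borne out by its markers. Smcp, a cysteine-rich protein of the mitochondrial capsule, was the brightest of all 14506 genes, with a lowest value of 13.86, a median of 14.10 and a highest of 14.24 on the log2 scale over the 20 arrays. Odf1, which builds the outer dense fibres along the tail, came next at 13.84, 14.11 and 14.21. Prm1, the protamine that replaces histones in the sperm head, ranked 4th at 12.43, 12.92 and 13.37. Smcp and Odf1 kept a narrow band in every rat, and Prm1 a wider one. Oaz3, an antizyme made in spermatids, ran from 11.62 over a median of 12.46 to 12.99. Akap4, the scaffold of the fibrous sheath, ran from 8.02 over 9.88 to 10.48 and ranked 162nd. Akap4 was thus by far the least steady of the 5 markers, with an SD of 0.81 beside 0.12 for Smcp, 0.11 for Odf1, 0.29 for Prm1 and 0.39 for Oaz3 (n = 20). The highest value on any array was 14.6 and the array maxima began at 14.3, so Smcp and Odf1 lay close to the top of what these arrays gave, and whether their small SDs reflect that ceiling was not tested.

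A value here is the log2 signal of a probe set as deposited. It holds the affinity of its probes as well as the amount of transcript, so a rank says how bright a gene was on this array and not how many copies a sperm held. The genes in the highest 10.0% by mean (1451 of 14506) are called bright, and those in the highest 10.0% by SD over the 20 arrays (also 1451) variable. Among the 7253 genes above the median gene, the lowest 10.0% by SD (725) are called steady. As an empirical low level, the 95th percentile of 1105 olfactory receptor genes was 7.75, and 10.7% of all genes (1549) lay above it. The median gene had a mean of 6.80 and an SD of 0.18. At the bright limit the last gene inside was Wfdc15b at 7.79 and the first outside Gabarapl1 at 7.79, so the limit parts genes that do not differ.

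**Figure D1:**
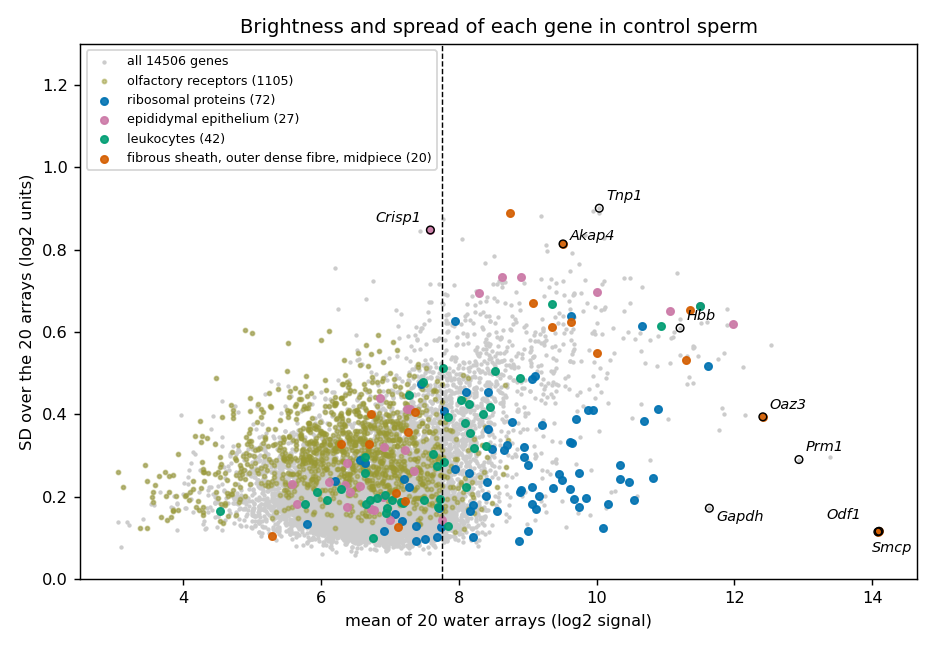
Each point is 1 gene, by its mean over the 20 water arrays (log2 signal) and its SD over them (log2 units), with 5 gene lists in colour and the dashed line at the olfactory receptor level of 7.75. Spread widened above that line, and Smcp, Odf1 and Gapdh were bright with a small SD.

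The 25 brightest genes mixed sperm structure with general cell genes and epididymal genes. Reep6, a membrane protein of the endoplasmic reticulum, came 3rd, with 12.66 as its lowest, 13.46 as its median and 13.76 as its highest value. Gsg1 (10.08, 11.74 and 12.32), a germ cell protein, and Iqcf3 (10.60, 12.14 and 12.79), of a family with calmodulin-binding motifs, also stood in the 25, with SDs of 0.62 and 0.66. Pim1, a serine/threonine kinase, had a mean of 11.41 ± 0.56 (SD, n = 20). Serpina16, a member of the serine protease inhibitor family, had a median of 12.66 and an array at 10.75, far below the next. Among genes of all cells, Actb, cytoplasmic actin, had a mean of 12.15 ± 0.40, Eef1a1, the elongation factor that brings aminoacyl-tRNA to the ribosome, 11.84 ± 0.40, and Ftl1, the ferritin light chain, 11.78 ± 0.36. The metallothioneins Mt2A (11.48 ± 0.54) and Mt1 (11.40 ± 0.48), which bind zinc and copper, were in the 25 too. Gapdh, the somatic glyceraldehyde-3-phosphate dehydrogenase, was the steadiest of the 25 apart from Smcp and Odf1, at 11.64 ± 0.17. Its 16 probe sets had means from 11.2 to 12.3, and the 6 of Ftl1 from 10.8 to 12.6, so for such genes the mean joins unlike probe sets. Tpi1 (11.40 ± 0.57) and its copy Tpi1l1 (11.82 ± 0.41), both for triosephosphate isomerase, may share transcripts on the probes and are uncertain as separate genes. Wfdc10a (11.98 ± 0.62) and Cd52 (11.50 ± 0.66), both secreted or shed by the epididymal epithelium, and Gstm1 (11.89 ± 0.62), a glutathione transferase, were also in the 25.

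**Figure D2:**
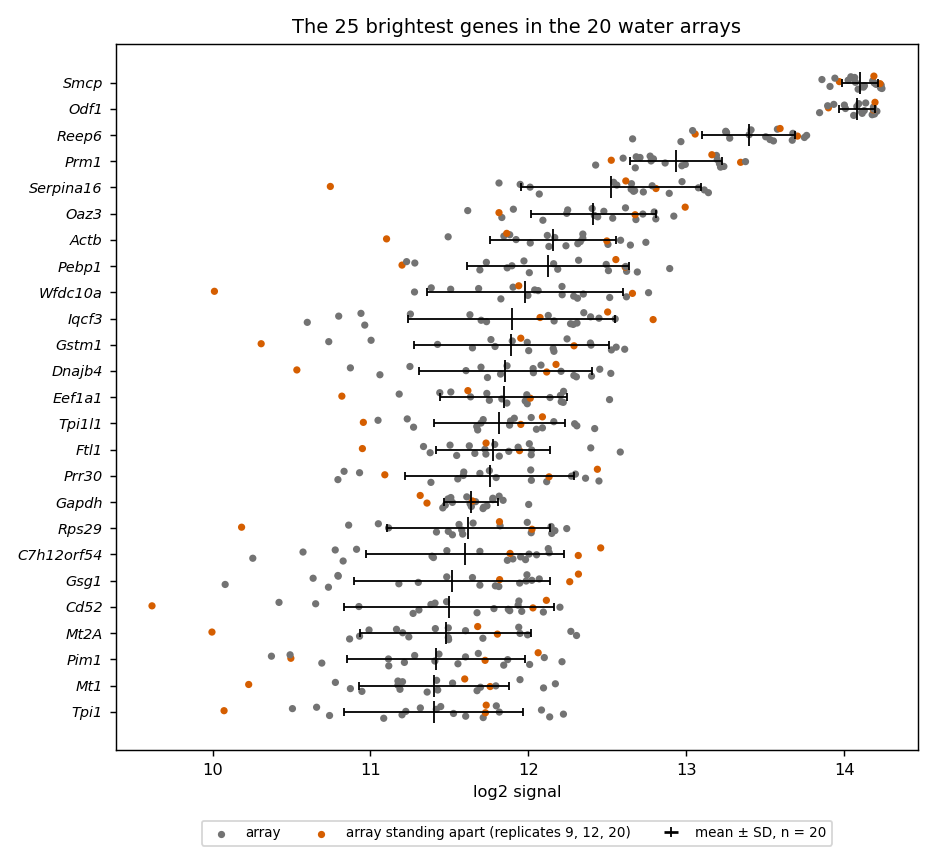
The 25 genes of highest mean, 1 point per array (log2 signal) with the mean ± SD over 20 arrays; orange marks replicates 9, 12 and 20, whose values correlated less with those of the other arrays. Smcp, Odf1 and Gapdh formed tight columns, whereas 14 of the 25 genes had their lowest value in replicate 12.

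3 arrays stood apart from the rest. Their median correlation with the other 19 was 0.951 (replicate 9), 0.952 (replicate 12) and 0.942 (replicate 20), against a median of 0.969 over all 20. Replicate 12 held the lowest value of 549 of the 1451 bright genes (37.8%) and of 390 of the 740 variable genes above the receptor level (52.7%). Replicate 7 held the highest value of 383 bright genes (26.4%). The arrays thus differed as wholes: the SD over genes within an array ran from 0.79 to 1.04. The first principal component carried 48.8% of the variance, and of the 100 genes at its one end 87 were olfactory and 8 vomeronasal receptor genes, while its other end was led by Crisp3, Tsx, Calr and Txn1, none of them a receptor. What set this array-wide stretch was not tested. It was left in the SDs below except where a fit is named, and genes need not share it alike.

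Structural genes of the sperm head and tail were both bright and variable. Of 20 measured genes of the fibrous sheath, outer dense fibre and midpiece, 11 were bright (55%, beside 10.0% of all genes) and 11 variable (55%, beside 10.0%). The median mean of this list was 8.91 and its median SD 0.40. Tcp11, a protein of the sperm tail, reached 11.36 ± 0.65 and Spata18, known for its part in the quality control of mitochondria, 11.29 ± 0.53. Odf2, a further outer dense fibre protein, had 10.01 ± 0.55. Spata19, a protein of sperm mitochondria, ran from 7.18 over a median of 8.87 to 10.16 and had the 3rd highest SD of all genes, 0.89. Where the SD was ranked only among genes of like brightness, in 20 bins, 9 of the 20 stayed in the top 10%.

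Of 10 measured genes of sperm chromatin, 6 were bright (60.0%) and 5 variable (50.0%). Tnp1, transition protein 1, was the most variable gene on the arrays. It ran from 8.32 in replicate 5 over a median of 10.11 to 11.58 in replicate 20, a mean of 10.04 ± 0.90, and leaving out replicate 5 lowered the SD to 0.83. Tnp2 was brighter and steadier, at 10.31, 11.03 and 12.24. Prm2, the other protamine, was dimmer than Prm1, at 8.22, 9.38 and 10.30, with an SD of 0.60 beside the 0.29 of Prm1. So the transition proteins and Prm2 spread over a wider range from rat to rat than Prm1, which was also the brightest gene of the list. Within bins of like brightness only 1 of the 10 genes, Tnp1, stayed in the top 10% by SD.

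Enzymes and kinases of the spermatid followed. Of 21 kinases and phosphatases of spermatids 8 were bright (38.1%) and 9 variable (42.9%). Phospho1 (10.00 ± 0.62), a phosphatase, Mtm1 (9.67 ± 0.70), a phosphoinositide phosphatase, and Tssk6 (9.41 ± 0.70), a testis-specific serine kinase needed for sperm head shaping, led it after Pim1. Of 10 testis isozymes of mitochondria 4 were bright and 5 variable, among them Cox6b2, the testis form of a cytochrome c oxidase subunit, at 8.60, 9.43 and 10.57. Of 11 genes of polyamines and antizymes 4 were bright and 4 variable. Azin2, an antizyme inhibitor, had 11.39 ± 0.56. Within bins of like brightness 1 of the 10 isozymes and 1 of the 11 polyamine genes stayed in the top 10% by SD. Of 23 ubiquitin genes 6 were bright and 9 variable, led by the conjugating enzyme Ube2d2 at 10.88 ± 0.52. Klhl10, a substrate adaptor of a spermatid ubiquitin ligase, ran from 8.21 over 9.47 to 10.23.

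The acrosome was a dimmer group. Only 4 of its 21 measured genes were bright (19.0%), and 7 were variable (33.3%). Crisp2, which is kept in the acrosome and the tail, was the exception, at 8.89, 10.71 and 11.35. Dkkl1 (8.76 ± 0.60), an acrosomal glycoprotein, and Zpbp (8.35 ± 0.65), which binds the zona pellucida, were next. Of 38 genes of the axoneme and its tektins 7 were bright (18.4%) and 8 variable (21.1%), with Dnaaf11, a dynein assembly factor, at 9.24 ± 0.57. Of 14 ion channels and pumps of sperm 2 were bright (14.3%, beside 10.0% of all genes). They were Aqp7, a water and glycerol channel, at 7.95 ± 0.47 and Slc26a8, an anion transporter, at 7.85 ± 0.31. The median of the acrosome list was 7.08, of the axoneme list 6.98 and of the channel list 6.93, against 6.80 over all genes.

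Messages of earlier germ cells and of testis somatic cells were mostly below the middle of the array. The median gene lay at percentile 30.5 by mean for the meiosis and piRNA list, 37.9 for spermatogonia, 38.7 for Sertoli cells and 46.7 for Leydig cells. None of 22 genes of meiosis and the piRNA pathway was bright and 1 was variable, Mael, a piRNA pathway protein of the spermatid, at 6.67, 7.64 and 8.51. Of 11 genes of spermatogonia 1 was bright (9.09%, beside 10.0% of all genes) and none was variable. The bright gene was Uchl1, a deubiquitinase also made in neurons, at 7.84 ± 0.22. None of 18 Sertoli cell genes and none of 7 Leydig cell genes was bright or variable. Lists this small can hold few or none at the 10.0% of all genes in either class. These counts alone therefore do not set the lists apart. Rhox5, a homeobox gene of Sertoli and epididymal cells, lay at 7.26 ± 0.11, and Cyp17a1, an enzyme of androgen synthesis, at 6.78 ± 0.14. The highest of these testis somatic genes, Tf for transferrin, had a mean of 7.52, below the receptor level of 7.75.

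**Figure D3:**
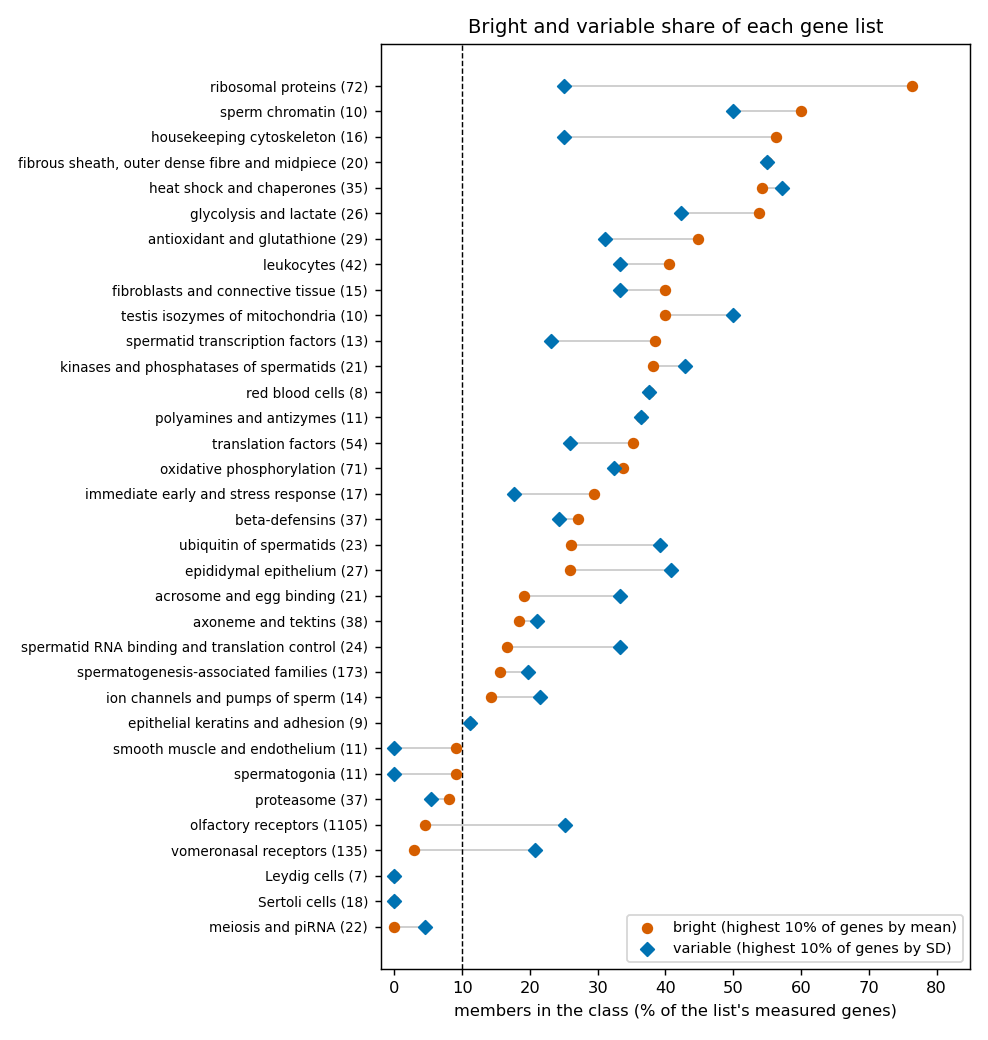
For each of 34 gene lists (the number of measured genes in brackets), the orange dot gives the percentage of its genes that were bright and the blue diamond the percentage that were variable; the dashed line is the 10% of all genes in either class. Ribosomal proteins had the highest bright share, 76.4%, and the olfactory receptors a bright share of 4.52% with a variable share of 25.2%.

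Genes listed as markers of the epididymis, of leukocytes and of connective tissue were bright beside those of sperm. Which cells their signal came from was not tested. Of 27 genes of the epididymal epithelium 7 were bright (25.9%) and 11 variable (40.7%), and 13 of the 27 stayed in the top 10% by SD within bins of like brightness. Npc2, a cholesterol-binding protein of epididymal fluid, ran from 9.48 over 11.16 to 12.10. Ces5a, the carboxylesterase cauxin, had 10.00 ± 0.70, and Adam7, an epididymal membrane protein that sperm take up, ran from 7.06 over 8.60 to 10.01. Crisp1, an epididymal protein that coats the sperm, had a median of only 7.40 but reached 9.79 in replicate 4, with an SD of 0.85. Of 37 beta-defensins, antimicrobial peptides secreted along the duct, 10 were bright (27.0%) and 9 variable (24.3%). Defb43 led them at 10.12 ± 0.66, Defb23 had 9.83 ± 0.84 and Defb30 9.26 ± 0.81. Defb30 was lowest in replicate 12 (7.09) and highest in replicate 4 (10.89), as were Crisp1, Crisp3, Defb23, Glb1 and Tsx.

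Of 42 leukocyte genes 17 were bright (40.5%) and 14 variable (33.3%), with 6 in the top 10% by SD within bins of like brightness. Cd52 stands in this list as well as in the epididymal one. Cd74, the invariant chain of class II antigen presentation, ran from 9.20 over 11.09 to 11.61, and Lyz2, the lysozyme of macrophages and neutrophils, from 7.71 over 9.49 to 10.49. Of 15 fibroblast and connective tissue genes 6 were bright and 5 variable. The matrix proteoglycan Dcn had 10.06 ± 0.65 and fibronectin, Fn1, 8.04 ± 0.83. Without replicate 5 only 3 of the 15 were variable. Of 8 red blood cell genes, the globins Hbb (9.80, 11.34 and 12.23) and Hbb-b1 (10.07 ± 0.59) and Alas2, the first enzyme of haem synthesis in red cells, at 7.79 ± 0.49, were bright and variable, while Ahsp, the alpha haemoglobin stabilising protein, was at 5.19 ± 0.18. Of 11 genes of smooth muscle and endothelium 1 was bright (9.09%, beside 10.0% of all genes) and none was variable. The bright gene was Acta2, smooth muscle actin, at 8.57 ± 0.19. With so few genes, these counts are not set apart from the shares over all genes.

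General cell genes filled much of the bright class. Of 72 ribosomal protein genes 55 were bright (76.4%), with a median of 8.92, and 18 were variable (25%). Rps29 led at 10.18, 11.62 and 12.24, and Rpl7a, over 13 probe sets, had 10.82 ± 0.24. Within bins of like brightness 3 of the 72 stayed variable, and 3 of the 56 above the receptor level did when only such genes were ranked. Ribosomal messages were thus rarely wide for their brightness, though 25 of the 72 were in the top 10% by SD left after the fit on olfactory receptors described further on. Of the heat shock proteins and chaperones 19 of 35 were bright (54.3%), 20 variable (57.1%), and 11 stayed so within the bins. Dnajb4 (10.53, 12.03 and 12.52) and Bag1 (11.08 ± 0.59), both partners of the 70-kDa heat shock proteins, led them, with Hspb9, a small heat shock protein of the testis, at 10.89 ± 0.59. Calr, the calcium-binding chaperone of the endoplasmic reticulum, had an SD of 0.77 and Hspa8, the constitutive 70-kDa form, of only 0.21.

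Glycolysis and oxidative phosphorylation had variable shares between those of ribosomal proteins and chaperones, and bright shares below both. Of 26 genes of glycolysis and lactate 14 were bright (53.8%) and 11 variable (42.3%), while 1 of the 26 stayed variable within bins of like brightness. Of 71 genes of oxidative phosphorylation 24 were bright (33.8%) and 23 variable (32.4%), and 16 stayed variable within the bins, but 2 of the 24 above the receptor level did when only such genes were ranked. Cox8a, a subunit of cytochrome c oxidase, was its brightest gene at 11.04 ± 0.39, and Ndufb6, of complex I, its most variable, from 5.63 over 7.67 to 8.77. Of 29 antioxidant and glutathione genes 13 were bright and 9 variable, with Txn1, thioredoxin, at 7.66, 10.17 and 11.18 and Sod3, the extracellular superoxide dismutase, at 7.24, 8.42 and 10.05. Of 54 translation factors 19 were bright and 14 variable. Within bins of like brightness 7 of the antioxidant genes and 6 of the translation factors stayed variable, and of the 20 translation factors above the receptor level none did when only such genes were ranked. Of 37 proteasome genes 3 were bright (8.11%) and 2 variable (5.41%), with 6 in the top 10% by SD within the bins. Its brightest subunit, Psmb2, had 8.45 ± 0.33.

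Several enzymes and other proteins have a form known from testis and a related form of other tissues, and 11 such pairs had both forms measured. The probe signal of the testis form was the brighter in 3 of them, and its SD the higher in 5. The counts depend on how forms were paired: Hspa2 (SD 0.36) was set beside Hspa5 (0.60) and not beside Hspa8 (0.21). Gapdhs, the glyceraldehyde-3-phosphate dehydrogenase anchored to the fibrous sheath, ran from 8.87 over 10.54 to 11.56, below and far wider than Gapdh (11.31, 11.64 and 12.00). Gapdh was averaged over 16 probe sets and Gapdhs had 1, so their spreads were not measured alike. Pgk2, the phosphoglycerate kinase of spermatids, had 8.98 ± 0.60 and Pgk1 7.34 ± 0.18. Ldhc, the lactate dehydrogenase of germ cells, had 8.29 ± 0.51 and Ldha 8.70 ± 0.25. Oaz3 had 12.41 ± 0.39 and Oaz1 5.93 ± 0.30. The forms sit on different probes, so their signals do not rank the amounts of transcript.

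Among the 20 genes of highest SD, spermatid genes stood beside epididymal and connective tissue genes. Tnp1, Spata19, Akap4, Ms4a14, Spz1 and Nt5c1b made up the first kind. Ms4a14, a membrane protein of the sperm, ran from 7.18 over 9.56 to 10.23, Spz1, a spermatid transcription factor, from 6.87 over 8.71 to 9.97, and Nt5c1b, a testis nucleotidase, from 8.06 over 9.89 to 10.76. Akap4, Ms4a14, Spz1 and Tnp1 were each lowest in replicate 5 and highest in replicate 20. Crisp3 (7.67, 10.05 and 11.33), Glb1, the lysosomal beta-galactosidase (7.92, 10.07 and 11.44), Tsx (6.01, 7.66 and 9.59), Prom1, a membrane glycoprotein of epithelia (7.54, 9.66 and 10.93), and Scd2, a fatty acid desaturase (7.35, 9.36 and 10.40), were all lowest in replicate 12. Fn1 (6.94, 7.81 and 9.85) and Prg4, the lubricant proteoglycan (6.11, 7.19 and 9.00), were lowest in replicate 20. Of the 20 genes, 11 were lowest in replicate 12 and 10 highest in replicate 4, while 5 were lowest in replicate 5 and 4 highest in replicate 20. Many of the most variable genes thus shared their extreme arrays, but not all did. Il33, an alarmin of epithelial and stromal cells, was the one gene of the 20 decided by a single rat. Its median was 6.01 and its highest value 9.06, in replicate 5, without which the SD of 0.76 fell to 0.35.

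**Figure D4:**
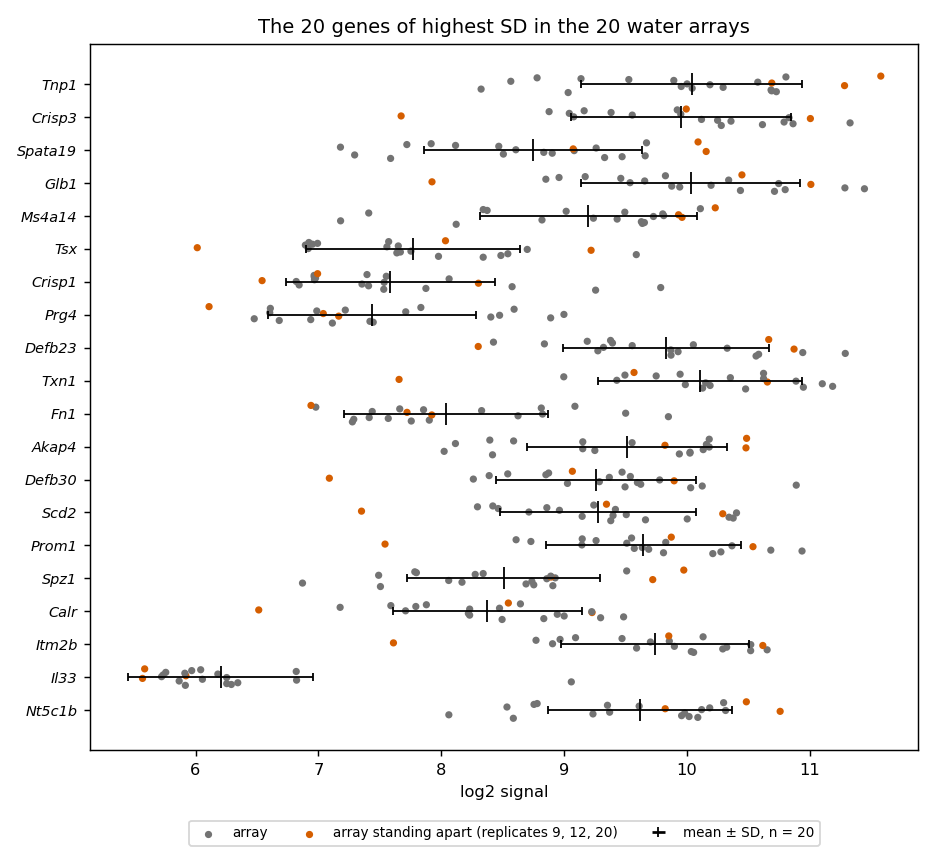
The 20 genes of highest SD, 1 point per array (log2 signal) with the mean ± SD over 20 arrays; orange marks replicates 9, 12 and 20. Tnp1 ran from 8.32 to 11.58, and for Il33 a single array at 9.06 lay far above the rest.

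The genes most like a chosen gene over the 20 arrays differed between the chosen genes. Likeness was Pearson's r over the 20 rats, taken as a description without a test. The array-wide stretch was left in these values, and genes did not share it alike. A fit on the olfactory receptor mean, described further on, took the SD of Tnp1 from 0.90 to 0.72 but that of Fn1 from 0.83 to 0.85. Nearest to Prm1 came Zfand3 (r = 0.96), Tssk3 (0.96), Psme3ip1 (0.96), C1h10orf90 (0.95) and Gtsf1 (0.95). Tssk3 is a testis-specific serine kinase and Gtsf1 a partner of piRNA-pathway proteins. Nearest to Tnp1 came Spata19 (0.98), Spa17 (0.96), a protein of the fibrous sheath, Adam3a (0.96), Crisp2 (0.96) and Spem1 (0.96), a spermatid protein of cytoplasm removal. Nearest to Crisp1 came Man2b1 (0.94), a lysosomal mannosidase, Tfap2b (0.92), Pla2g7 (0.92) and Defb26 (0.91), and nearest to Fn1 was Prg4 (0.94). Nearest to Hbb came Hbb-b1 (0.95), Alas2 (0.93) and Cdc25b (0.93), then Gid4 (0.88) and Adgre5 (0.88). Cd74 was nearest to RT1-Ba (0.96), a class II gene, but almost as near to the glutathione transferase Gstm1 (0.96). Hsp90b1 (0.95), Pdia3 (0.95) and Gsta1 (0.94) came next to Cd74, so its neighbours were not all genes of antigen presentation. The second component of the variance, 12.0%, ran from Tnp1, Ms4a14, Spz1, Spata19 and Akap4 at one end to Txn1, Ndufb6, Il33, Crisp1 and Defb30 at the other.

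The bases before the starts of 7 spermatid genes are printed, 4 of them sperm markers and the others Tnp1, Spata19 and Gapdhs from the variable end. No promoter was matched to Odf1, the remaining marker. Whether these bases bear on the spread over the rats was not tested. Each run is the 120 bases from position -120 to -1 before the RefSeq gene start, 5′ to 3′ along the gene, in build GRCr8. Capitals mark a cyclic AMP response element, TGACGTCA, or TGACATCA, which differs from it at 1 base and reads TGATGTCA on the other strand.
Prm1: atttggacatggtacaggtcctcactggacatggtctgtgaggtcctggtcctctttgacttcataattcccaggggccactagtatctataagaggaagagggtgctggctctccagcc
Smcp: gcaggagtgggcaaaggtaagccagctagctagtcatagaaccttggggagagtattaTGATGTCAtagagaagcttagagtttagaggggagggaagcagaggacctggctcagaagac
Oaz3: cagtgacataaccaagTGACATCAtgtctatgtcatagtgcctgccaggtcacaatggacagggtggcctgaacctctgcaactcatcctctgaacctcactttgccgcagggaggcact
Akap4: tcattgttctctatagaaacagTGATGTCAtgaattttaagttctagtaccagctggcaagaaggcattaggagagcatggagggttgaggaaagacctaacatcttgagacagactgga
Tnp1: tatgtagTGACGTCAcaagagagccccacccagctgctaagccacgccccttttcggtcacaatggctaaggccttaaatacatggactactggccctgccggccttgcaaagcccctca
Spata19: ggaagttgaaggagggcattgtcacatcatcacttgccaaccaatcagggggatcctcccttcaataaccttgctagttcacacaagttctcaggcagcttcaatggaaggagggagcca
Gapdhs: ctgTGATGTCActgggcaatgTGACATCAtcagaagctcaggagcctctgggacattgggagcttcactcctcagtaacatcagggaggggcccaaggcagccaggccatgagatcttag

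The windows lie for Prm1 at chr10:5378620-5378739 (+ strand), for Smcp at chr2:180861565-180861684 (- strand), for Oaz3 at chr2:184765177-184765296 (- strand), for Akap4 at chrX:18117550-18117669 (- strand). They lie for Tnp1 at chr9:82044279-82044398 (- strand), for Spata19 at chr8:34073232-34073351 (+ strand), for Gapdhs at chr1:95121056-95121175 (- strand). The cyclic AMP response element binds factors of the CREB family, among them the CREM form made in spermatids. The full element was found in Tnp1, at positions -113 to -106. The variant was found in Smcp, Oaz3 and Akap4, and in 2 copies in Gapdhs. Neither was found in Prm1 or Spata19, but Prm1 held tgacttca, which also differs from the full element at 1 base, at positions -64 to -57. Runs of 8 bases with no more than 1 base different from TGACGTCA were in 6 of the 7 windows, in 6.73% of matched genes, 9.35% of bright, 7.84% of variable and 7.89% of steady genes. Over windows of the same length before all 33469 RefSeq starts of the table, 1.18% held the full element and 3.07% the variant, on either strand. Among the 11503 genes matched by gene ID, 1.67% held the full element and 1.16% the variant. Of 1145 matched bright genes 2.27% and 2.36% held them, of 1174 variable genes 1.53% and 2.56%, and of 583 steady genes 2.40% and 0.858%. Of 31 bright genes from 7 sperm and spermatid lists, 5 held the variant (16.1%) and 1 the full element. The 31 include genes printed above, among them Smcp, Oaz3 and Akap4 with the variant and Tnp1 with the full element. These counts are therefore not independent of the windows that were read. TATAAA, searched on both strands as well, was in 6.49% of the matched genes and in none of the 7 windows shown. TGACATCA and the search for runs within 1 base were chosen after these windows had been read, so their counts are a description. The windows of steady genes had a median GC content of 65.0%, of bright genes 63.3% and of variable genes 59.2%, against 60.0% over all matched genes.

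The 12 steadiest genes were not bright. Galnt11, a transferase that starts mucin-type glycosylation, was the steadiest gene above the median, at 7.12, 7.23 and 7.35 with an SD of 0.06. Cdk5rap3 (7.57 ± 0.06), Sh2b1 (7.27 ± 0.06), an adaptor of insulin and leptin signalling, Nup85 (6.95 ± 0.07), of the nuclear pore, and Dkc1 (6.94 ± 0.07), the pseudouridine synthase of ribosomal RNA, came next. Dus1l, Ap3m2, Sh3gl1, Zfyve19, Thoc5, Ctsz and Rab3gap2 completed the 12, all with means between 6.92 and 7.48. All 12 thus lay under the receptor level of 7.75. Of the 725 steady genes 45 were bright. They were taken from the 7253 genes above the median, which hold all 1451 bright genes. Of the 1451 variable genes 715 were bright, but these were taken from all 14506 genes, of which 10.0% were bright. The 2 counts thus have unlike bases. Smcp and Odf1 were the brightest of the steady genes, and Stmn1, a microtubule regulator, was steady at 8.01 ± 0.11. Of the sperm lists, 2 of the 16 fibrous sheath, outer dense fibre and midpiece genes above the median were steady (12.5%, beside 10.0% of all genes above it), 2 of 11 acrosome genes (18.2%), 2 of 9 ion channels and pumps (22.2%) and none of 8 sperm chromatin genes. Of 68 ribosomal protein genes above the median 7 were steady (10.3%), and of 29 chaperones above it none was.

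Signal of chemosensory receptors gave a view of the array-wide stretch. Olfactory receptor genes had a median of 6.51, and 50 of 1105 were bright (4.52%), led by Or10ak14b at 8.71 ± 0.34. Yet 278 of them were variable (25.2%), as were 28 of 135 vomeronasal receptor genes (20.7%, and 18 of 135 without replicate 20). The median SD of the olfactory receptors was 0.30, against 0.18 over all genes, and 491 of the 1105 (44.4%) were in the top 10% by SD within bins of like brightness. After a linear fit of each gene on the mean of the olfactory receptor genes of its array, 63 of the 1105 were in the top 10% by SD, which follows from how the fit was made, and all 20 of the most variable genes stayed there. This fit was chosen after the data had been seen.

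The means of other gene groups were set against that of the sperm markers across the rats. The array-wide stretch was left in these means, so a list that passes this test is not set apart from it. Values after the fit on olfactory receptors are given further on. The mean of the 5 markers ran from 12.01 in replicate 5 over a median of 12.62 to 13.00 in replicate 20. Means of 34 gene lists, without the markers, were related to it, and 30 of them passed an adjusted p of 0.05 (permutation tests of 100000 resamples, two-sided, Benjamini-Hochberg over 34). The fibrous sheath, outer dense fibre and midpiece list rose with the markers at r = 0.96 and rho = 0.93 (permutation p = 1e-05 for both, the smallest these permutations can give, adjusted p = 2.62e-05 and 3.09e-05), and at r = 0.94 without replicates 5 and 17, the 2 farthest from the median. Sperm chromatin rose at r = 0.91 and rho = 0.92 (the same p and adjusted p), r = 0.87 without the 2. Within replicates 1 to 10 and within 11 to 20, r for sperm chromatin was 0.96 and 0.90. The olfactory receptors went the other way, at r = -0.76 and rho = -0.77 (permutation p = 9e-05 for both, adjusted p = 0.000191), r = -0.80 without the 2, -0.78 within replicates 1 to 10 and -0.75 within 11 to 20, where rho was -0.41 (permutation test, adjusted p = 0.322). No label marks a batch, and these blocks rest on replicate numbers alone. List levels also differed between replicates 1 to 10 and 11 to 20. The epididymal list had means of 7.74 ± 0.12 (SD) and 7.48 ± 0.15, and leukocytes 7.69 ± 0.17 and 7.47 ± 0.17. Ribosomal proteins had 8.90 ± 0.13 and 8.69 ± 0.19, and olfactory receptors 6.27 ± 0.22 and 6.51 ± 0.23. The fibrous sheath list, at 8.20 ± 0.39 and 8.11 ± 0.37, differed less. SDs over the 20 arrays include these differences, whose cause was not tested.

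Other cell types did not share 1 course. Leukocyte genes rose with the sperm markers at r = 0.64 and rho = 0.64 (permutation p = 0.00177 and 0.0028, adjusted p = 0.00274 and 0.00453), r = 0.66 without the 2, but within replicates 11 to 20 the r of 0.53 did not pass (permutation p = 0.111, adjusted p = 0.151), beside 0.75 within 1 to 10. Red blood cell genes rose at r = 0.77 and rho = 0.82 (permutation p = 2e-05 for both, adjusted p = 4.86e-05 and 5.23e-05), r = 0.73 without the 2, 0.87 within 1 to 10 and 0.61 within 11 to 20, which did not pass (permutation p = 0.0527, adjusted p = 0.0896). Smooth muscle and endothelial genes fell at r = -0.67 and rho = -0.61 (permutation p = 0.00088 and 0.00473, adjusted p = 0.0015 and 0.0067), r = -0.63 without the 2, -0.80 within 1 to 10 and -0.54 within 11 to 20, which did not pass (permutation p = 0.104, adjusted p = 0.147). The epididymal list gave r = 0.23 and rho = 0.26 (permutation p = 0.327 and 0.264, adjusted p = 0.327 and 0.267), with -0.32 and 0.50 within the blocks and 0.44 without the 2. Connective tissue gave r = -0.34 and rho = -0.26 (permutation p = 0.14 and 0.267, adjusted p = 0.149 and 0.267), with -0.55 and -0.21 within the blocks and 0.019 without the 2, but passed after quantile normalization at r = -0.54 (permutation p = 0.011, adjusted p = 0.017). After the fit on olfactory receptors, 15 of 33 lists passed, most of them lists of sperm and spermatids. The receptor mean itself fell with the marker mean (r = -0.76), so the fit can also take out signal that goes with the markers. Whether it takes out the array-wide stretch alone was not tested. Sperm chromatin kept r = 0.81 and the fibrous sheath list r = 0.89, whereas ribosomal proteins went from r = 0.50 to 0.09 and leukocytes from 0.64 to 0.27. Red blood cell genes kept r = 0.59 (permutation test, adjusted p = 0.0132) and chaperones r = 0.61 (permutation test, adjusted p = 0.00877), while the epididymal list turned from 0.23 to -0.47 (permutation test, adjusted p = 0.0784). Smooth muscle and endothelial genes no longer passed, at r = -0.41 and rho = -0.17 (permutation tests, adjusted p = 0.139 and 0.592). Of the 11 genes of that list, 1 lay above the receptor level, so its mean is mostly low signal.

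**Figure D5:**
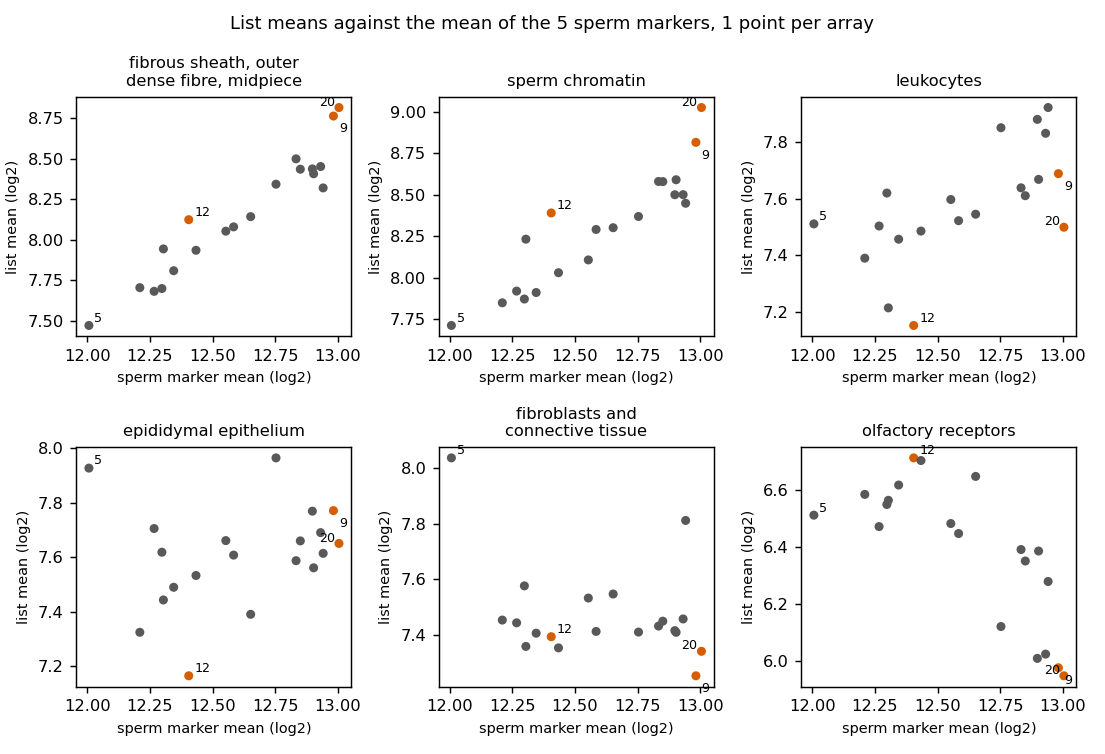
Mean of 6 gene lists (log2) against the mean of the 5 sperm markers (log2), 1 point per array, with replicates 5, 9, 12 and 20 numbered and the arrays that stood apart in orange. The sperm lists rose along a line, replicate 5 had the lowest marker mean (12.01) and the highest connective tissue mean (8.04), and the olfactory receptor mean fell from 6.71 to 5.95.

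The same measures were repeated in the 18 rats on plain water with 3 further months. Over 14506 genes the means of the 2 sets of arrays had a Spearman correlation of 0.994 and the SDs of 0.749, across genes, which are not independent replicates. Of the 25 brightest genes 21 were again among the 25 brightest, and the others, Gsg1, Mt2A, Mt1 and Tpi1, ranked no lower than 32nd. Of the 20 most variable genes 19 were again in the top 10% by SD, and the exception was Il33, with an SD of 0.25. Of the bright genes 92.1% were bright again, of the variable genes 71.5% and of the steady genes 35.4%. Brightness thus carried over to other rats almost in full, spread in part, and steadiness least. Both sets were measured with the same probe sets, whose affinity enters every mean, so likeness of the means is partly given by the platform.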

How the data were processed

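RNA of cauda sperm from 77 rats was hybridised by the authors to Affymetrix Rat Gene 1.0 ST arrays, 1 per rat, and the deposited series table holds 1 log2 value per probe set and array, normalized by the authors. How these were background-corrected, summarised and normalized is not given in the sources used here. The submitters' processing notes name limma. The methods describe DNase treatment for the later PCR samples and do not mention it for the array samples. Its part in low signals was not tested. Groups came from the labels. No value was missing. Of the probe sets, 323 had several symbols and 13581 none, and were left out; 527 genes had over 1 probe set, averaged, and in 154 their means lay over 1 log2 apart. With arrays there is no depth, and their number, 20, limits the precision.

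For each gene the mean and SD over the 20 water arrays were computed (Python 3.11.15, numpy 2.4.6, pandas 2.3.3), and the share of each of 35 gene lists in the bright, variable and steady classes was read against the same share over all genes, with no test. Of 595 symbols in the 27 lists named gene by gene, 503 were found, and 8 lists came from symbol patterns. Members and lists were chosen with earlier results of these data known. Named were the 25 brightest, 20 most variable and 12 steadiest genes, the sperm markers, the 3 brightest and 2 most variable genes of each list, 17 listed isoform pairs, and the 5 genes most like Prm1; a further gene named beside these was chosen after its values were seen. An array stood apart when its median correlation lay below the lower quartile minus 1.5 interquartile ranges. Relations across rats used permutation tests. The scripts were tested on simulated data. Alternatives were other scalings, spreads, filters and class widths, and leaving out arrays. Promoter sequences and gene IDs came from RefSeq (GRCr8).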

Additional observations from a re-analysis of the deposited data

How the results depend on the processing

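No paired analysis was possible because 1 group was described and no test between groups was made. Of 35 gene lists, 21 had a bright share of at least 2 times that of all genes, 26 such a variable share and 4 such a steady share. The same 21 bright lists held under median centring, quantile normalization, without replicates 9, 12 and 20, with the brightest probe set, with the top 5%, with medians and in the 18 water-recovery arrays. The variable count fell to 13 when SDs were ranked in 20 bins by mean and to 13 among genes above the olfactory receptor level, with 12 of the 26 shared in each case; under the other 9 alternatives it stayed between 22 and 27. The steady count stayed between 3 and 5, but only 1 of its 4 lists was shared with a median absolute deviation and 1 among genes above the receptor level, so which lists counted as steady changed with the setting. Leaving out 1 replicate at a time gave 21 to 22 bright, 24 to 27 variable and 4 to 6 steady lists. Of the 34 relations to the sperm marker mean, 30 passed, and 18 did within replicates 11 to 20, which hold 10 arrays. After the fit on the olfactory receptor mean, chosen after seeing the data, 15 of 33 passed. With other alternatives 25 to 30 passed. The 25 were out of 27 lists, those with enough members above the receptor level. The cause of these changes was not tested.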
